A study of Mus musculus with 4 samples.

Results

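Acetylcholine signalling genes were examined in mouse hippocampus as a group of 10 genes, chosen as a list and matched by gene symbol. They are the muscarinic receptors Chrm1, Chrm2, Chrm3 and Chrm4, the nicotinic receptor subunits Chrna4, Chrna7 and Chrnb2, and the acetylcholine enzymes and choline carrier Ache, Chat and Slc5a7. All 10 were found among the 22173 genes listed, of which 19388 carried values. Polyadenylated RNA was sequenced from 4 hippocampus samples of C57BL/6 mice. Control mice received phosphate-buffered saline (2 samples, called PBS here), and treated mice received (+)-Sodium L-ascorbate, the sodium salt of vitamin C (2 samples), with a treatment of 30 days stated for the series. The series title speaks of middle-aged mice and of cognition, which places the ascorbate comparison in the context of memory. Dose, route, age in months and whether a sample is 1 animal or a pool are not given in the sources used here. Each group has a sample numbered 1 and a sample numbered 2, and the labels give that number no meaning. The p-values below therefore measure only the spread between these samples.

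Acetylcholine is made from choline and acetyl-CoA by choline acetyltransferase, is released by cholinergic neurons, and is broken down in the synaptic cleft by acetylcholinesterase, after which choline is taken up again. The hippocampus receives most of its acetylcholine from axons of the septum, whose cell bodies lie outside it, and acetylcholine there is known for its role in attention and memory encoding. Its receptors are of 2 kinds. Muscarinic receptors act through G proteins, Chrm1 and Chrm3 through Gq and Chrm2 and Chrm4 through Gi, whereas nicotinic receptors are ion channels built of 5 subunits. The medial habenula, a small nucleus above the thalamus and close to the hippocampus, has cholinergic neurons of its own.

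In RefSeq on GRCm38.p6, the muscarinic receptor genes span Chrm1 at chr19:8664005-8683606, Chrm2 at chr6:36387991-36528638, Chrm3 at chr13:9875486-10361062 and Chrm4 at chr2:91922189-91929835. The nicotinic subunit genes span Chrna4 at chr2:181022311-181043579, Chrna7 at chr7:63098692-63212526 and Chrnb2 at chr3:89753448-89764632. The enzyme and carrier genes span Ache at chr5:137288247-137294466, Chat at chr14:32408203-32465909 and Slc5a7 at chr17:54273590-54299038.

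The deposited unit is FPKM, in which fragments are divided by gene length and by library size, so levels of different genes can be set side by side. Read totals are not given in the sources used here, and the FPKM summed to between 348133 and 391142 per sample. The most frequent value above 0 in 337 receptor genes of the nose (olfactory and vomeronasal), little used in brain, was 0.0600 or 0.0700 FPKM in each sample. Hippocampal markers were present in every sample. Their summed level was between 64.7 and 87.7 FPKM for 7 dentate gyrus markers and between 32.6 and 137 FPKM for 6 CA1 pyramidal markers. The samples stood apart by number. Markers of the thalamus, which lies under the hippocampus, summed to 351 and 376 FPKM in the samples numbered 1 and to 42.8 and 42.5 FPKM in those numbered 2. Tests covered the 13372 genes whose 4-sample mean reached 1 FPKM, 9 of the 10 cholinergic genes among them, and for 61.1% of them the groups by number did not overlap.

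Over the 4 samples, Ache had the highest mean at 30.4 FPKM, followed by Chrm1 (17.9), Chrnb2 (11.9), Chrm3 (8.38), Chrna7 (7.62), Chrna4 (7.30), Chrm2 (4.62), Chrm4 (3.79), Slc5a7 (1.52) and Chat (0.555). This order was not the same in each sample. Ache led in both samples numbered 1 and Chrm1 in both samples numbered 2, and the ranges over samples of all neighbours in the order overlapped. Chat was the lowest in all 4 samples. Changes are given as differences of log2(FPKM + 1), which understate the fold of genes at low FPKM, and a call means an adjusted p under 0.05 in limma-trend with Benjamini-Hochberg adjustment over all 13372 genes.

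**Figure D1:**
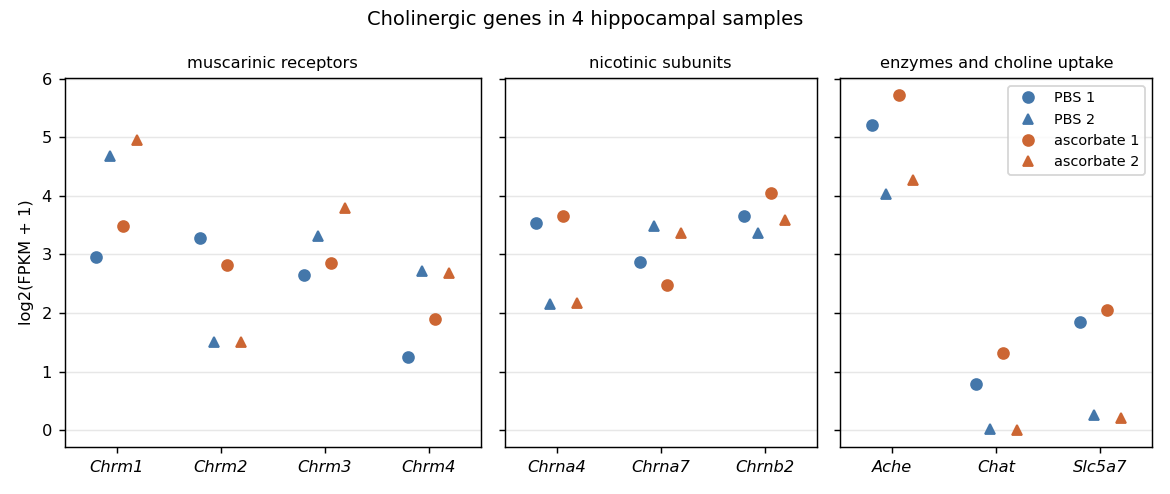
Level of each of the 10 genes as log2(FPKM + 1), 1 point per sample, by treatment (colour) and by sample number (circle for 1, triangle for 2). Triangles lie above circles for Chrm1, Chrm3, Chrm4 and Chrna7 and below them for the other 6 genes, while the colours overlap for every gene.

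With ascorbate, no cholinergic gene was called, and the PBS and ascorbate ranges overlapped for all 10 genes. In limma-trend 0 of the 9 genes tested passed, adjusted or at an unadjusted p under 0.05, against 0% called of all 13372 genes, of which 377 (2.82%) had an unadjusted p under 0.05. Groups did not overlap for 23.0% of all genes tested, with ascorbate higher for 8.65% and lower for 14.4%. The median log2 difference over the 9 genes was 0.30, ascorbate minus PBS, beside -0.018 over all genes tested. Leaving out 1 sample moved the median of the 9 to 0.062 without PBS sample 2, 0.072 without ascorbate sample 1, 0.43 without ascorbate sample 2 and 0.45 without PBS sample 1. Wide intervals stand behind these values. The receptor subunit Chrnb2 had the narrowest, 0.31 with a 95% confidence interval of -0.31 to 0.92, and Slc5a7 the widest, 0.074 with an interval of -2.22 to 2.37. Exact permutation of 2 against 2 samples cannot give a 2-sided p under 0.333.

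Compared between samples of the same number, Chrm1, Chrm3, Chrna4, Chrnb2 and Ache were higher with ascorbate in both pairs, as were 23.9% of all genes tested. Chrna7 was lower in both pairs, as were 32.5% of all genes tested. For Chrm1 the pair numbered 1 differed by 0.53 and the pair numbered 2 by 0.27, and for Ache the values were 0.51 and 0.24. These were small beside the differences between the numbers within a treatment, which for Chrm1 were 1.72 with PBS and 1.47 with ascorbate. Chrm2 differed by -0.46 in the pair numbered 1 and was listed at 1.83 FPKM in both samples numbered 2. Markers of the choroid plexus, which secretes cerebrospinal fluid, summed to 9657 and 8911 FPKM with PBS and to 222 and 47.0 FPKM with ascorbate. For all 12 the groups did not overlap, with ascorbate lower, as for 14.4% of all genes tested. Of these 12 markers, 0 were called. None of the cholinergic genes separated the groups that way.

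**Figure D2:**
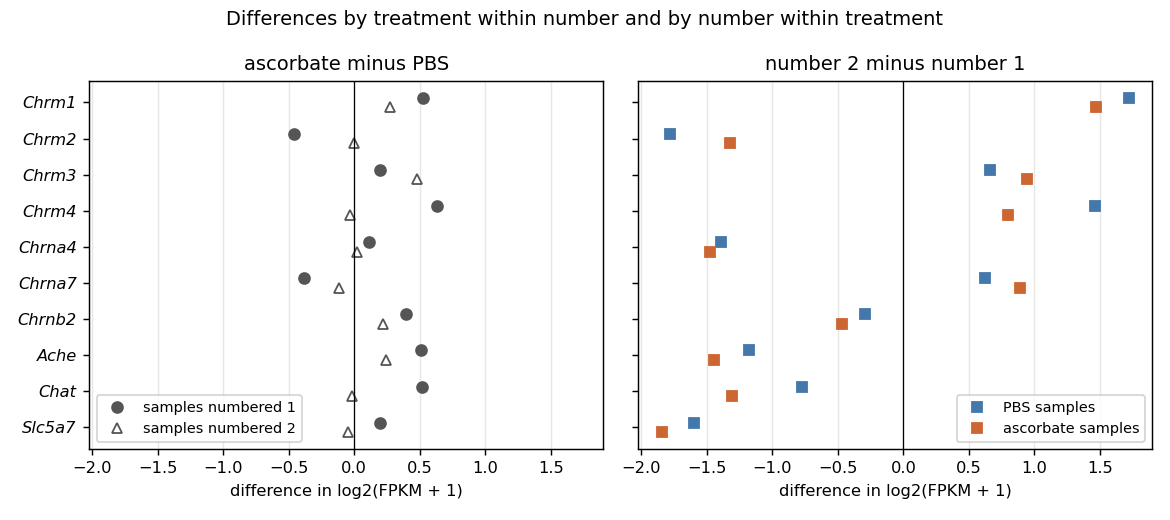
Differences in log2(FPKM + 1) of the 10 genes. The left panel shows ascorbate minus PBS within each sample number and the right panel number 2 minus number 1 within each treatment; the right-hand values are of the same sign in both treatments for every gene, from -1.84 for Slc5a7 to 1.72 for Chrm1.

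By sample number, all 10 genes were separated, 4 higher and 6 lower in the samples numbered 2. Over all genes tested, 22.6% were separated as higher and 38.5% as lower. In limma-trend 8 of the 9 genes tested passed, 4 higher and 4 lower, where 5.03% of all genes were called higher and 6.95% lower (12% in all, 1602 of 13372 genes). The 10 genes were chosen with earlier results of these data known, so the contrast with all genes is a description and not a test of the group. Slc5a7, among the 4 lower, reached the level for testing only through the samples numbered 1. At an unadjusted p under 0.05 the same 8 of 9 passed, against 29.9% of all genes. No member passed without PBS sample 1 (69 of all genes called) or without ascorbate sample 1 (0 of all genes called), 6 passed without PBS sample 2 and 5 without ascorbate sample 2. None passed when genes of low FPKM were kept in the test, where 0 of 19388 genes were called although 4432 had an unadjusted p under 0.05. In bulk tissue, fewer cells of a type and less RNA per cell cannot be told apart.

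Among muscarinic receptors, the Gq-coupled Chrm1, the main postsynaptic muscarinic receptor of forebrain pyramidal neurons, was higher in the samples numbered 2. It was 6.77 FPKM in the PBS sample numbered 1 and 24.66 FPKM in the other PBS sample, and 10.19 and 29.98 FPKM in the ascorbate samples in the same order. Both samples numbered 2 were far above both numbered 1, with no overlap. The mean was 8.48 ± 2.42 FPKM in the samples numbered 1 and 27.3 ± 3.76 in those numbered 2 (SD, n = 2 each), 3.22-fold higher. The log2 difference was 1.60 (SE 0.20, limma-trend adjusted p = 0.0113). Chrm3, likewise Gq-coupled and known also for smooth muscle and gland responses, was 5.31 and 9.0 FPKM with PBS and 6.24 and 12.95 with ascorbate, in the order of the numbers. It was higher in both samples numbered 2 by 0.81 (SE 0.19, limma-trend adjusted p = 0.0486), close to the threshold. The call was lost after rescaling to TPM (adjusted p = 0.0530) or by median of ratios (adjusted p = 0.0509). It was also lost without a trend in the variance (adjusted p = 0.0632) and without a filter (adjusted p = 0.187). Leaving out 1 sample at a time gave differences from 0.565 to 1.045.

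The Gi-coupled receptors went in opposite directions. Chrm2, known as the autoreceptor on cholinergic terminals and as the receptor that slows the heart, was 8.72 and 1.83 FPKM with PBS and 6.08 and 1.83 with ascorbate. Both samples numbered 2 held the same low value. The mean of the samples numbered 1 was 4.04-fold higher, a log2 difference of -1.55 (SE 0.19, adjusted p = 0.0106). Chrm4, abundant in striatal projection neurons and present in hippocampus, was 1.39 and 5.60 FPKM with PBS and 2.71 and 5.44 with ascorbate. It was higher in both samples numbered 2, by 1.13 (SE 0.23, adjusted p = 0.0353), a call lost when any 1 of the 4 samples was left out (adjusted p from 0.0565 to 0.105). The gene overlaps the end of Mdk on the opposite strand by 31 bases.

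The makeup of muscarinic transcripts thus differed by number. Chrm2 made up 39.3% of the summed FPKM of the 4 genes in PBS sample 1 and 24.1% in ascorbate sample 1, but 4.45% and 3.65% in PBS and ascorbate samples 2. Chrm1 made up 30.5% and 40.4% in the samples numbered 1 and 60.0% and 59.7% in those numbered 2. The share of Chrm3 stayed between 21.9% and 25.8% in all 4 samples. Chrm1 exceeded Chrm2 by 13.5-fold and 16.4-fold in PBS and ascorbate samples 2, whereas the ratio was 0.776 and 1.68 in the samples numbered 1. The fifth muscarinic receptor, Chrm5, was low, from 0.54 to 1.49 FPKM, overlaps Aven, and was not called by number (adjusted p = 0.643).

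**Figure D3:**
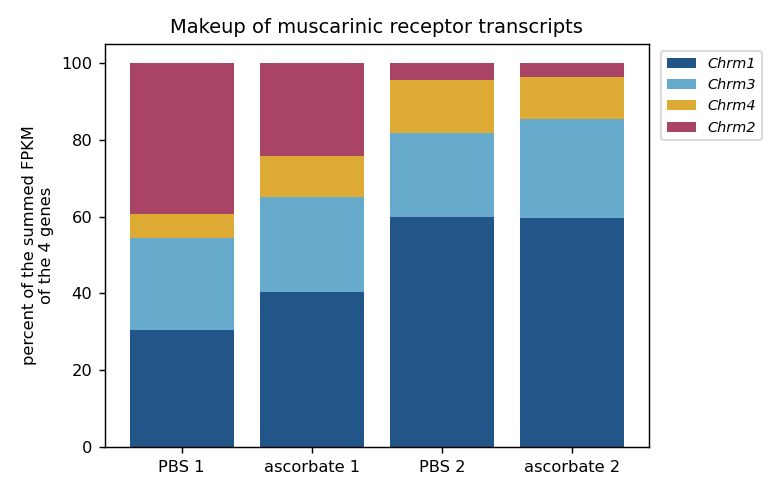
Share of each muscarinic receptor gene in the summed FPKM of Chrm1, Chrm2, Chrm3 and Chrm4, in percent, 1 bar per sample ordered by number. Chrm2 takes 39.3% and 24.1% in the samples numbered 1 and under 5% in those numbered 2, where Chrm1 takes about 60.0%.

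Of the nicotinic subunits, Chrna4 and Chrnb2 together form the most common heteromeric nicotinic receptor of the brain, with high affinity for nicotine. Chrna4 was 10.65 and 3.45 FPKM with PBS and 11.59 and 3.52 with ascorbate, in the order of the numbers. The samples numbered 1 were above the others by 3.19-fold in the mean, with 11.1 ± 0.665 FPKM against 3.49 ± 0.0495 (SD, n = 2 each). The log2 difference was -1.43 (SE 0.12, adjusted p = 0.00638), the smallest adjusted p among the cholinergic genes. Its partner Chrnb2 was 11.66 and 9.33 FPKM with PBS and 15.66 and 11.02 with ascorbate. It was lower in the samples numbered 2 with a difference of -0.38 (95% confidence interval -0.80 to 0.034), which did not pass (adjusted p = 0.195). Chrnb2 exceeded Chrna4 by 1.10-fold and 1.35-fold in PBS and ascorbate samples 1 and by 2.70-fold and 3.13-fold in PBS and ascorbate samples 2. Transcripts of Chrnb2 share 1014 identical bases with those of Adar, on the opposite strand, so the Chrnb2 values are uncertain.

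Chrna7 forms a homomeric, calcium-permeable nicotinic receptor that binds alpha-bungarotoxin and is prominent in the hippocampus. It was 6.29 and 10.22 FPKM with PBS and 4.59 and 9.36 with ascorbate. Both samples numbered 2 were higher, by 1.80-fold in the mean and by 0.76 on the log2 scale (SE 0.16, adjusted p = 0.0390). This call was lost without a trend in the variance (adjusted p = 0.0508) and when any 1 of the 4 samples was left out (adjusted p from 0.0676 to 0.137). Chrna4 therefore exceeded Chrna7 by 1.69-fold and 2.53-fold in PBS and ascorbate samples 1, while the ratio of Chrna4 to Chrna7 was 0.338 and 0.376 in the samples numbered 2.

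Acetylcholinesterase (Ache), which breaks down acetylcholine, is made by cholinergic neurons and by many neurons that receive their input. It was 36.09 and 15.36 FPKM with PBS and 51.73 and 18.38 with ascorbate. The samples numbered 1 lay above both others, by 2.60-fold in the mean and -1.31 on the log2 scale, number 2 minus number 1 (SE 0.19, adjusted p = 0.0162). The high-affinity choline transporter Slc5a7 returns choline to cholinergic terminals and marks cholinergic neurons. It was 2.60 and 0.19 FPKM with PBS and 3.13 and 0.15 with ascorbate, 16.9-fold higher in the mean of the samples numbered 1. Its log2 difference was -1.72 (SE 0.20, adjusted p = 0.0100). Slc5a7 reached the level for testing only through the samples numbered 1, so this call depends on the filter.

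Choline acetyltransferase (Chat), the enzyme that makes acetylcholine and the defining marker of cholinergic neurons, was 0.73 FPKM in PBS sample 1 and 1.48 FPKM in ascorbate sample 1. In the samples numbered 2 it was at 0.01 FPKM with PBS and listed at 0 with ascorbate. With a mean of 0.555 FPKM it did not reach the level set for testing. It entered the test after rescaling to TPM, where it was lower in the samples numbered 2 (-1.88, adjusted p = 0.0345), and without a filter it did not pass (-1.04, adjusted p = 0.139). Its entry after rescaling rested on the samples numbered 1. The nested gene Slc18a3, the vesicular acetylcholine transporter, lies on the same strand within the span of Chat. It was 0.46 and 0.02 FPKM with PBS and 0.98 FPKM and listed at 0 with ascorbate. Reads of this pair may be shared, so neither value stands alone.

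The promoters of 3 genes are shown because Chat and Slc5a7 were together near 0 in the samples numbered 2, while the nicotinic subunit Chrna7 was higher there. Each run is the 250 bases before the start that the RefSeq promoter table (GRCm38.p6) gives for the gene, 5′ to 3′ on its own strand, which is the minus strand for all 3. They span chr14:32465910-32466159 for Chat, chr17:54299035-54299284 for Slc5a7 and chr7:63212527-63212776 for Chrna7. Capitals mark the GC box GGGCGG, a site of Sp factors, and TGACG, the core of the cAMP response element, each searched on both strands.
Chat: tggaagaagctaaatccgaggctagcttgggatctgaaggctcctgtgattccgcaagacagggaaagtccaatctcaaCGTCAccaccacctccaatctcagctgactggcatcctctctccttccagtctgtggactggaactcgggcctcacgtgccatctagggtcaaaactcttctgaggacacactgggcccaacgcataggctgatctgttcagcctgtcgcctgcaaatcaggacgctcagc
Slc5a7: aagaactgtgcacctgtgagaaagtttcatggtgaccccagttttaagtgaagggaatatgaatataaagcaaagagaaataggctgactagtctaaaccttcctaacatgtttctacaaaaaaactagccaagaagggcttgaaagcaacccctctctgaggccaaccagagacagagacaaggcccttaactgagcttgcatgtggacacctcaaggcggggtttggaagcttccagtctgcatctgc
Chrna7: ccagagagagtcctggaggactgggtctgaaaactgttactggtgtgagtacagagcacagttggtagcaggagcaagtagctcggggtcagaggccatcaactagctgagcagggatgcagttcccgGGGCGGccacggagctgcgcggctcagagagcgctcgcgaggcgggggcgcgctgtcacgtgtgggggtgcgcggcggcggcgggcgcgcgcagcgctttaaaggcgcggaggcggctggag
The Chrna7 window held 1 GC box, and the Chat and Slc5a7 windows held none. The TGACG core was found once in Chat and not in the other two. GC content was 67.2% for Chrna7, 54.8% for Chat and 45.6% for Slc5a7, against a median of 52.4% over 32851 promoter windows. Of the 9 cholinergic genes with a window in the table, 5 held a GC box (32.7% of all windows did) and 2 held the TGACG core (17.8%), with no overlap of the motifs. For 5 of the 9 the start in the table lies inside the full span of the gene, by 4 bases for Slc5a7, 7 for Ache, 93 for Chrm2, 259 for Chrm3 and 4402 for Chrna4, so those windows do not lie wholly before the outermost start. GC boxes were present in genes of both directions by number, with 3 in Chrm4 and 4 in Ache. These matches describe letters only.

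Other cholinergic receptor genes were taken from a list of 14, of which 13 had values and 6 reached the level for testing. By number, 4 of the 6 were called lower in the samples numbered 2 and 0 higher, where 6.95% and 5.03% of all genes tested were called. The median log2 difference was -1.40 beside -0.082 over all genes tested. These 4 genes, at most 0.43 FPKM in the samples numbered 2, reached the level for testing only through the samples numbered 1. The count and the median therefore depend on the filter. Chrna5, under that level, was higher in both samples numbered 2. Chrna3 was 2.47 and 0.17 FPKM with PBS and 3.3 and 0.20 with ascorbate, a difference of -1.70 (SE 0.21, adjusted p = 0.0108). Chrnb4, which joins Chrna3 in receptors of the medial habenula and of autonomic ganglia, was 2.00 and 0.43 FPKM with PBS and 2.60 and 0.21 with ascorbate (-1.32, adjusted p = 0.0214). Chrna6 and Chrnb3, subunits known from dopamine neurons and the habenula, had differences of -1.93 (adjusted p = 0.0110) and -1.48 (adjusted p = 0.0222). Chrna6 was 2.31 and 3.55 FPKM in the samples numbered 1, 0.04 FPKM in PBS sample 2 and listed at 0 in ascorbate sample 2. Chrnb1, a subunit of the muscle receptor, did not pass (0.24, adjusted p = 0.591). With ascorbate, none of the 6 was called (unadjusted p from 0.281 to 0.988). Chrna3 overlaps Chrna5 on the opposite strand by 1304 bases.

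Of the chaperones and membrane-bound modulators of nicotinic receptors, all 8 listed genes were tested. By number 2 were called higher and 1 lower, where 5.03% and 6.95% of all genes tested were called. The assembly factor Ric3 was between 22.83 and 23.26 FPKM in all 4 samples. Tmem35a, also known as NACHO and needed for assembly of the Chrna7 receptor, was 32.67 and 32.07 FPKM with PBS and 35.50 and 24.62 with ascorbate. Among the Ly6 proteins, which sit on the membrane and tune nicotinic receptors, Lypd6b was lower in the samples numbered 2 (-1.05, adjusted p = 0.0391). Lypd1 (0.57, adjusted p = 0.0395) and Ly6e (0.49, adjusted p = 0.0418) were higher. Lynx1, the most abundant Ly6 protein gene on average after Ly6h, was between 75.1 and 91.1 FPKM and did not pass (0.028, adjusted p = 0.913), and Lypd6 was between 5.92 and 6.19 FPKM. Ly6h ranged from 59.8 to 107.9 FPKM without following number or treatment. With ascorbate 0 of the 8 were called, with the smallest unadjusted p at 0.268 for Lynx1.

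Of 8 further genes for vesicle loading, breakdown and choline supply, 6 were tested. In the samples numbered 2, 1 was called lower and 0 higher, where 6.95% and 5.03% of all genes tested were called. Prima1, which anchors acetylcholinesterase in the neuronal membrane, was 4.83 and 1.88 FPKM with PBS and 4.06 and 1.27 with ascorbate (-1.09, SE 0.19, adjusted p = 0.0232). It thus differed by number in the same direction as Ache. The citrate lyase Acly, a source of acetyl-CoA (-0.55, adjusted p = 0.0619), and the choline transporter Slc44a1 (-0.47, adjusted p = 0.0640) did not pass. Nor did Bche, the other cholinesterase (-0.23), Slc44a2 (-0.021) and the choline kinase Chka (0.13). With ascorbate none of the 6 was called. Among 5 identity genes of cholinergic neurons, only Isl1 reached the level for testing, at 1.27 and 0.02 FPKM with PBS and at 4.57 FPKM and listed at 0 with ascorbate (adjusted p = 0.0514 by number). Isl1 did so only through the samples numbered 1. Lhx8, which specifies forebrain cholinergic neurons and is named here after its values were seen, was 0.22 and 0.24 FPKM in the samples numbered 1 and listed at 0 in both others.

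Downstream genes of the muscarinic receptors were grouped by G protein class. On the Gq side, 9 of 12 tested genes were called higher in the samples numbered 2 and 1 was called lower, where 5.03% and 6.95% of all genes were called. Their median log2 difference was 0.78, and the groups were separated as higher for 10 and as lower for 2. The G protein subunit Gna11 did not pass (0.25, adjusted p = 0.278). The gene called lower was phospholipase Plcb4, named after its values were seen, at 42.2 and 5.98 FPKM with PBS and 30.8 and 5.12 with ascorbate (-2.50, adjusted p = 0.00494). On the Gi side, 3 of 11 genes were called higher and 0 were called lower, with a median of 0.18. The groups by number were separated as higher for 4 and as lower for 2 of them. Gnao1 (0.18, adjusted p = 0.504) and Gnai3 (-0.098, adjusted p = 0.645) did not pass. The difference between the sides was not tested. With ascorbate 0 of these 23 genes were called.

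Markers of some neighbouring regions and of oligodendrocytes differed by number. For comparison, 5.03% of all genes tested were called higher and 6.95% lower in the samples numbered 2. All 11 thalamus markers were called lower in the samples numbered 2, with a median log2 difference of -2.64. The most abundant were Prkcd, at 83.1 and 8.30 FPKM with PBS and 92.8 and 11.8 with ascorbate, the glutamate transporter Slc17a6, at 82.7 and 6.08 against 78.8 and 7.02, and Zic1, at 28.3 and 4.09 against 37.6 and 1.23. Of 4 habenula markers 3 were called lower, and their summed level was 35.0 and 62.8 FPKM in the samples numbered 1 and 8.74 and 9.92 in those numbered 2. Tac2 was 18.2 and 42.9 FPKM in the samples numbered 1 and 3.19 and 3.68 in those numbered 2. Gpr151 was 7.51 and 9.62 against 0.24 and 0.58 FPKM, and Nwd2 was between 5.31 and 8.15 FPKM in all 4 samples. Pou4f1, the defining factor of habenular neurons, was 2.57 and 2.19 FPKM in the samples numbered 1 and listed at 0 in both samples numbered 2. Both Pou4f1 and Gpr151 reached the level for testing only through the samples numbered 1. All 6 oligodendrocyte markers were called lower as well, and their sum was 3618 and 3528 FPKM against 1924 and 1563.

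In the other direction, the CA1 pyramidal markers summed to 32.6 and 59.5 FPKM in the samples numbered 1 and to 114 and 137 FPKM in those numbered 2. Of these, 3 of 6 were called higher and the groups were separated for all 6. Among all genes tested, 5.03% were called higher and 6.95% lower, and 22.6% were separated as higher. The most abundant were Mpped1, at 7.0 and 45.4 FPKM with PBS and 14.3 and 59.5 with ascorbate, Wfs1 and Man1a. Of the 8 neocortex markers 3 were called higher and 1 lower, of the 7 dentate gyrus markers 4 higher and 0 lower, and of the 7 CA2/CA3 markers 1 higher and 0 lower. Of the 9 striatum markers tested 3 were called lower and 0 higher. Drd2, among those called, was 0.76 FPKM in PBS sample 2 and 0.55 FPKM in ascorbate sample 2. It reached the level for testing only through the samples numbered 1, so its call depends on the filter. Pan-neuronal markers summed to between 2114 and 2389 FPKM in all 4 samples, with 1 of 8 called in each direction. Of 6 GABAergic neuron markers 1 was called higher and 3 lower, and of 6 astrocyte markers 1 higher and 2 lower. None of the 6 microglia and 4 endothelial markers was called by number in limma-trend. At an unadjusted p under 0.05 were 1 and 0 of them, and 29.9% of all genes tested. The part of these tissues and cell types in the cholinergic differences was not tested.

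**Figure D4:**
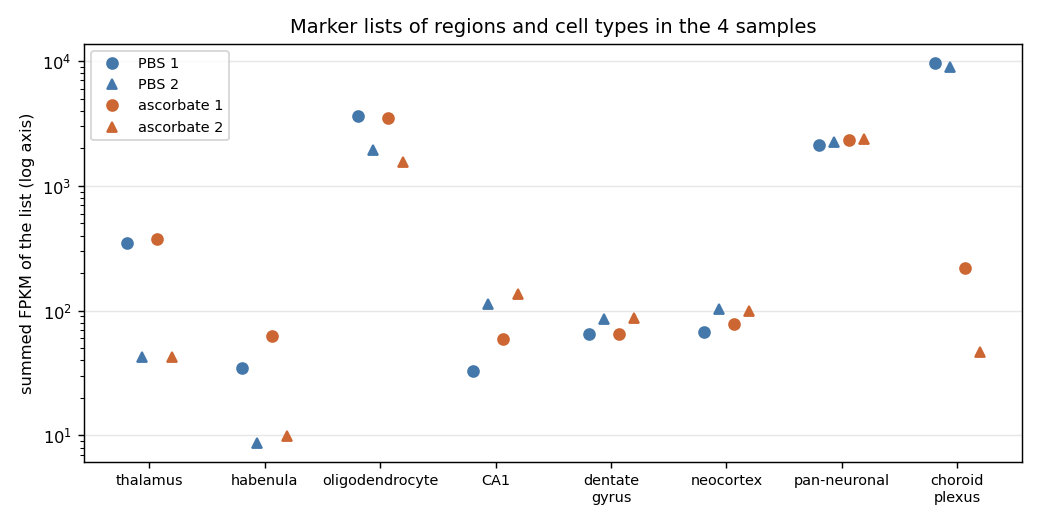
Summed FPKM of 8 marker lists on a log axis, 1 point per sample, by treatment (colour) and by number (circle for 1, triangle for 2). Thalamus, habenula and oligodendrocyte lists are higher in circles, and the choroid plexus list separates by colour. The CA1 list (114 and 137 against 32.6 and 59.5 FPKM) and the dentate gyrus and neocortex lists are higher in triangles.

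The 2 cholinergic genes with the widest range over the samples were Chrm1, with a range of 2.00 in log2(FPKM + 1), and Slc5a7, with 1.84. Likeness to them was measured as the Euclidean distance between log2(FPKM + 1) profiles over the 4 samples, each centred on its own mean. The genes closest to Chrm1 were the cortical transcription factor Tbr1 (distance 0.027), the vesicular glutamate transporter Slc17a7 (0.065) and the calcium sensor Hpcal4 (0.087). Slc17a7 was 92.6 and 296 FPKM with PBS and 131 and 380 with ascorbate. The genes closest to Slc5a7 were the calcium channel subunit Cacna2d2 (0.059), Tmem91 (0.088) and the nicotinic subunit Chrna3 (0.10). With 4 samples that fall into pairs by number, close profiles are a description of these samples.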

How the data were processed

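Total RNA was extracted with Trizol and mRNA was captured on oligo(dT) beads, per the labels' protocols. The authors deposited FPKM for 1 library per file, given to 2 decimals, per the file headers. HISAT2, Bowtie2, RSEM and DESeq2 with GRCm38 are named, per the submitters' processing notes, with no version or role. The annotation and strand setting are not given in the sources used here. FPKM are not counts, so no count model was fitted. Depth is unknown, so no counting error is given.

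Files were joined by gene ID, and limma-trend (limma 3.58.1 in R 4.3.3) was fitted for 2 comparisons to log2(FPKM + 1), keeping the 13372 genes whose 4-sample mean reached 1 FPKM. They were ascorbate against PBS and number 2 against number 1, each with 2 residual degrees of freedom, all 4 samples and no covariate. Benjamini-Hochberg adjustment ran over all genes tested. The ascorbate comparison was tried on simulated data with noise independent between samples. The comparison by number was not simulated. The 95% confidence intervals come from the same fit. Positions and promoters come from RefSeq (GRCm38.p6) and strands from GENCODE M21. Transcripts were compared with BLAST 2.17.0 with limits of 95% identity and 200 bases.

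Alternatives were other pseudocounts, filters, scalings and variance models, a further factor, and each sample left out in turn. Members and lists were chosen with earlier results of these data known. Named genes were the 10 members, tested genes of 3 small pathway lists, the 2 with the smallest treatment p of 3 others, the 3 most abundant markers of lists described and the 3 closest profiles. Some genes of these lists are not reported here by name.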

Additional observations from a re-analysis of the deposited data

Results flagged for a closer look

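For 3 genes the difference between ascorbate and PBS had opposite signs in the samples numbered 1 and 2, which is a comparison of 1 sample with 1 sample in each case, and the difference was not tested. In log2(FPKM + 1), Chrm4 differed by 0.63 between the samples numbered 1 and by -0.035 between those numbered 2. Chat differed by 0.52 and by -0.014, with values of 0.01 FPKM and a listed 0 behind the latter. Slc5a7 differed by 0.20 and by -0.049, with 0.19 and 0.15 FPKM behind the latter.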

How the results depend on the processing

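By treatment, no cholinergic gene was called under any of the 14 alternatives run, and over all genes the count was 0 except for 1 after quantile normalization and 485 with the replicate block. The numbers are not known to pair the samples. Deviations of same-numbered samples from their group means had a correlation of 0.770 over 13372 genes, and the block left 1 residual degree of freedom, with 4 of the 9 members at an unadjusted p under 0.05, as were 1701 of the 13372 genes, and no member past adjustment. Leaving out a sample turned the treatment direction of 8 genes, with log2 differences from -0.46 to 1.26 for Chrm1, -1.12 to 0.66 for Chrm2, -0.13 to 0.81 for Chrm3, -0.43 to 1.03 for Chrm4, -0.67 to 0.81 for Chrna4, -0.69 to 0.20 for Chrna7, -0.35 to 1.10 for Ache and -0.85 to 1.00 for Slc5a7.

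By number, no direction turned under any alternative. Over all genes, 1602 were called, 673 higher and 929 lower in the samples numbered 2. The split was 729 and 668 with median-of-ratios scaling, 804 and 715 after quantile normalization, 1316 and 2392 of 3708 with group as a further factor, and 0 of 19388 genes without a filter. Leaving out each sample gave 0 to 1731 genes and 0 to 6 members. In these fits the lone sample is assumed to vary like the others. Of the members, 8 were called, 0 without a filter (9 of 10 at an unadjusted p under 0.05) and 5 of the 6 with a mean of at least 5 FPKM, where the median over the members tested was 0.19 against -0.38, because fewer genes were tested. Chrnb2 passed with group as a further factor (adjusted p = 0.0352, range over alternatives up to 0.522). The cause of the other changes was not tested.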

Other observations

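Cholinergic genes under the level for testing were mostly low in all samples. The nicotinic subunit Chrna5 was 0.15 and 1.05 FPKM with PBS and 0.62 and 1.41 with ascorbate, higher in both samples numbered 2, and it overlaps Chrna3. Chrna2 was between 0.16 and 0.60 FPKM. Colq, the collagen tail that anchors acetylcholinesterase at the neuromuscular junction, was 0.40 and 0.11 FPKM with PBS and 1.07 and 0.21 with ascorbate. Chrna9 and the muscle subunit gene Chrnd were listed at 0 in all 4 samples. Ngfr, a neurotrophin receptor of septal cholinergic neurons, was low as well, between 0.44 and 1.32 FPKM.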
